A study of Mus musculus with 3 samples.

Results

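Among the 17285 gene rows of the table, 824 carried a provisional symbol, Gm or LOC followed by digits, and 62 of these (54 Gm and 8 LOC symbols) averaged at least 50 counts over the 3 libraries. These 62 abundant predicted gene models are described here. They were chosen by symbol and selected on the mean of their counts in these same libraries, so their levels are a description without a test. The RNA came from the mouse melanoma line B16, in a stable derivative with an empty vector (Mock). All 3 libraries, Mock replicates 1, 2 and 3, form this 1 group, so no other genotype, treatment or time stood beside it. The extraction protocol in the labels also speaks of various organs, while every other label names the cell line. Nothing in the labels tells whether the cultures were separate or whether the line is 1 clone, so the p-values below concern the scatter among these 3 samples alone, and that scatter may be technical. Totals were 9328096, 9456527 and 9438905 counts, and every pair of libraries differed by more than counting noise. Of 8 pigment cell markers 8 stood above 1 CPM (the usual counts-per-million scale, here on totals scaled by TMM), against 0 of 7 leukocyte, 0 of 4 fibroblast and 0 of 4 endothelial markers.

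A Gm symbol is a provisional name of the mouse nomenclature for a gene model without a described product, and a LOC symbol is the identifier that NCBI gives a model before it has a name. Such models are a mixed class. Some are processed pseudogenes, copies of a messenger RNA that were written back into the genome and lack introns. Some are read-through models, transcripts that join the exons of neighbouring genes. Others belong to clusters of KRAB zinc finger genes, which arose by repeated duplication and whose proteins bind DNA through arrays of C2H2 fingers and recruit repressors, many of them to transposable elements. Still others lie over endogenous retroviruses, the inherited copies of retroviral genomes, which mouse melanoma lines of this kind are known to transcribe. A short read from any of these may match more than 1 place in the genome. A counting tool that divides such a read writes a fraction to each gene, and reads of near-identical copies can be assigned to either partner.

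The annotation reflected this mixture. In RefSeq (GRCm38.p6) 48 of the 62 symbols were found, 42 by symbol, 4 by gene ID and 2 as an older synonym of a named gene. RefSeq classed 40 of them as protein coding, 4 as long noncoding RNA, 3 as pseudogene and 1 as transcribed pseudogene. GENCODE M21, the other annotation used, held 35 of the 62, of which 3 were in GENCODE only. The 11 members in neither source were Gm40498, Gm39972, Gm29779, Gm41885, Gm46620, Gm46257, Gm40525, Gm46894, Gm45951, Gm46918 and Gm42368, and they held 32.9 ± 1.38% (SD, n = 3) of the counts of all 62. Chromosome 2 carried 17 of the 48 members with a RefSeq place, the largest number on any chromosome, and 11 of those 17 belong to a single zinc finger cluster.

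How closely some of these models match their partner genes is seen in short stretches of 60 bases, read from GENCODE M21 transcripts (GRCm38) and printed 5′ to 3′ on the transcript strand. Capitals mark the positions at which the sequences of a set differ. The first set is the small ribosomal subunit gene Rps6 (chr4:86856776-86856835, minus strand) and its intronless copy Rps6-ps4, listed in the table as LOC105244208 (chr2:75191733-75191792, minus strand), with 0 differing positions.
Rps6: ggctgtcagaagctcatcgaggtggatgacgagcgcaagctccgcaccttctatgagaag
LOC105244208: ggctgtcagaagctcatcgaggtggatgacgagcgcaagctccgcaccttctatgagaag

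The next set is Hmgb1 (chr5:149050673-149050732, minus strand), which encodes an abundant chromatin protein, and its processed pseudogene Gm21596 (chr2:113920341-113920400, minus strand), with 1 differing position.
Hmgb1: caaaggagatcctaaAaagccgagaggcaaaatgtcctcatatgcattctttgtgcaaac
Gm21596: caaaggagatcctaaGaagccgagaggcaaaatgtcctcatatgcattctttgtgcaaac

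H3f3a (chr1:180811837-180811896, minus strand) encodes the replication-independent histone H3.3, and the stretch in its copy Gm12657 (chr4:94599415-94599474, plus strand) differs at 3 positions.
H3f3a: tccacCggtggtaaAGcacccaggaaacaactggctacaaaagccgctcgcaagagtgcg
Gm12657: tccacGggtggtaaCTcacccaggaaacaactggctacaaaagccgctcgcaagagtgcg

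Gm20594 (chr6:79818261-79818320, plus strand) resembles the mitochondrial 16S ribosomal RNA gene mt-Rnr2 (chrM:2080-2139, plus strand), from which it differs at 2 positions in this stretch.
Gm20594: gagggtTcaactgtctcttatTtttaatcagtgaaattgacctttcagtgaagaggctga
mt-Rnr2: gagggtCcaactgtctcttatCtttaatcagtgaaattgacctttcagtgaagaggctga

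The last set is shown because its genes are identical in coding sequence and all 3 varied between libraries. Gm14308 (chr2:176625631-176625690, minus strand), Gm14434 (chr2:176476067-176476126, minus strand) and Gm4724 (chr2:175425089-175425148, minus strand) are KRAB zinc finger genes, and the stretch lies in their KRAB-coding exon. It has 0 differing positions among the 3 genes, and their whole coding sequences, 1494 bases and 498 codons each, also differed at 0 bases.
Gm14308: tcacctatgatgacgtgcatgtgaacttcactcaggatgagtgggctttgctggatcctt
Gm14434: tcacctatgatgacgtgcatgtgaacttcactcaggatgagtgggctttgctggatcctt
Gm4724: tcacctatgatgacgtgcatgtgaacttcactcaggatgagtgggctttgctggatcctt

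The 62 models held 1.81%, 1.69% and 1.66% of all counts in replicates 1, 2 and 3, a mean of 1.72 ± 0.0789% (SD, n = 3). Read abundance was spread very unevenly among them. The median member stood at 16.1 CPM, below the 48.2 CPM of all 9779 genes averaging 50 counts or more. Above 1000 CPM stood 4 members, and 13 in all stood above 100 CPM, 28 lay between 10 and 100, and 21 under 10. The first 4 held 79.0 ± 0.855% and the first 10 held 92.4 ± 0.101% of the members' counts (SD, n = 3).

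Gm39701, annotated on chr1:170945108-170949763, stood at 9097, 7979 and 7958 CPM in replicates 1, 2 and 3 and ranked 3 among all genes of the table. It alone held 48.5 ± 1.79% (SD, n = 3) of the counts of the 62 members, and without it their share of all counts was 0.886%. Its mean was 8345 CPM. Replicate 1 was the highest of the 3, and the other libraries lay close together.

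Gm40498 followed at 2512, 2691 and 2545 CPM and Gm39972 at 1601, 1455 and 1395 CPM. Gm39701 and Gm40498 were the 2 members among the 20 most abundant genes of the table. LOC105244208, the Rps6 copy, stood at 1211, 1171 and 1192 CPM, with its libraries within 1.03-fold of each other. Gm29779, at 770, 787 and 807 CPM, and Gm41885, at 464, 548 and 479 CPM, came next, and neither has an annotation in the sources used.

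The noncoding model Gm43305 was at 452, 433 and 442 CPM. LOC100044627 and LOC100862455 each stood at 201, 227 and 173 CPM: the 2 rows hold the same 3 counts, 1882.82, 2138.10 and 1633.22, and RefSeq places the 2 models over each other. Both rows are counted among the 62, with the same values in each. Gm42226 was at 178, 169 and 170 CPM, Gm46620 at 134, 134 and 133 CPM, and the pseudogene Gm21811 at 132, 107 and 114 CPM. With these the 12 most abundant members are named, and every other member had a mean under 106 CPM.

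**Figure D1:**
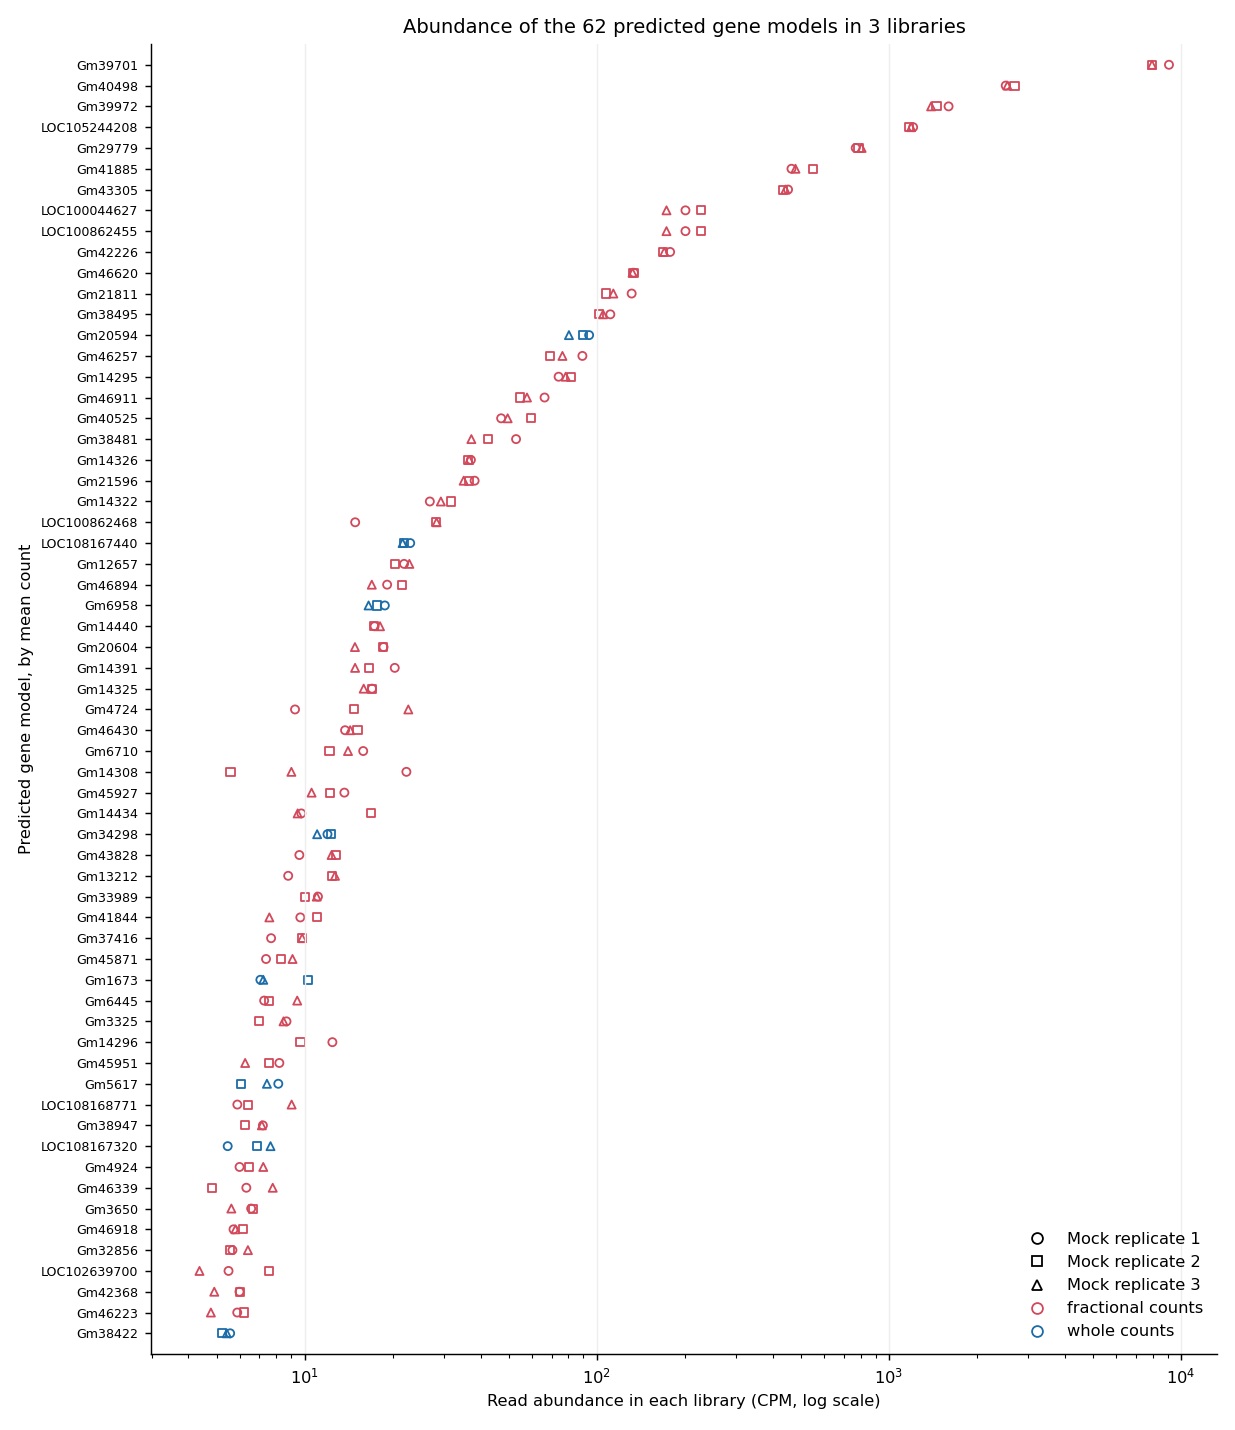
Read abundance in CPM (log scale) of the 62 predicted gene models, ordered by mean count, with 1 symbol per Mock replicate and colour for rows with fractional or whole counts. Gm39701 stands alone near 8345 CPM, the symbols of most members lie close together, and Gm14308, Gm4724 and LOC100862468 spread widely; the count of 0 for Gm14296 in replicate 3 is not drawn on the log scale.

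Levels of different genes can be compared only per length. On the scale of RPKM, CPM divided by the kilobases of merged exons, available for the members in GENCODE, LOC105244208 reached 1588, above the 850 of the actin gene Actb and below the 2533 of Gapdh. Gm20594 stood at 196 RPKM, Gm21811 at 127 and Gm43305 at 88.2. The lowest was Gm33989, a long model of 16543 exon bases, at 0.646 RPKM. Merged exons join all transcripts of a gene, 750 bases in LOC105244208, 2679 in Actb and 4133 in Gapdh. Genes with several transcripts can therefore stand lower on this scale than a model with 1 exon. All these values inherit whatever division of reads the counting made.

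Fractional counts were common among the predicted models. A value further than 0.005 from a whole number stood in at least 1 library in 54 of the 62 rows (87.1%). The same held for 1497 of the 9779 genes averaging 50 counts or more (15.3%). It held for 22 of 125 genes with provisional RIKEN names (17.6%). Among the 762 Gm and LOC rows below that mean it held for 223 (29.3%). The median of those 762 rows was 0.0354 CPM, and a row without reads cannot show a fraction. Their share therefore cannot be set against that of the 62 members at like abundance. In 45 members the fraction was present in all 3 libraries. Members with fractional counts held 1.70 ± 0.0781% of all counts and the 8 with whole counts 0.0167 ± 0.000911% (SD, n = 3).

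The 8 models with whole counts were Gm20594, LOC108167440, Gm6958, Gm34298, Gm1673, Gm5617, LOC108167320 and Gm38422. Gm20594, the 16S-like model, was the most abundant of them, with 881, 849 and 757 counts, and was lowest in replicate 3. LOC108167440, the noncoding RNA that RefSeq names AU020206, had 215, 206 and 204 counts. Gm6958 had 176, 167 and 156 counts.

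Gm34298, whose RefSeq span overlaps the homeobox gene Alx1, had 112, 116 and 104 counts, beside 484, 496 and 540 for Alx1. Gm1673, a short protein-coding gene, had 66, 97 and 68 counts and was highest in replicate 2. In each of these 5 models the differences between libraries gave an adjusted p of at least 0.05 in the test of spread described below.

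Shared sequence was measured as the share of a gene's 31-base words, from all its GENCODE transcripts, that occur in another gene. Transcripts were available for 35 members. The median member shared 61.7% of its words with another gene, against 1.74% over all genes averaging 50 counts or more. Among the 31 of these members with fractional counts the median was 82.2%, and 20 shared at least 50% of their words (64.5%). Over all genes of this abundance 288 of 9733 did (2.96%), and among fractional genes that are no members 113 of 1437 (7.86%). The 4 members with whole counts and transcripts shared few or none: 0% in Gm1673 and Gm5617, and at most 42 of 419 words, all found in mt-Rnr2, in Gm20594. Windows of 300 bases around the annotated start, most of which lies upstream, were counted too. Of the 270 words of the Gm6958 window 265 occur in transcripts of Gm42047, and 177 of the 270 of the Gm5617 window in Rbm7. Words were matched on either strand and at any place, so an adjoining gene can share the very same bases. These windows lie mostly outside the counted models and do not measure what the models themselves share. Genes outside the list had medians of 9.41% where counts were fractional and 1.16% where they were whole. The rule did not use sequence, and 11 members shared 90% of their words or more while 6 shared under 10%.

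**Figure D2:**
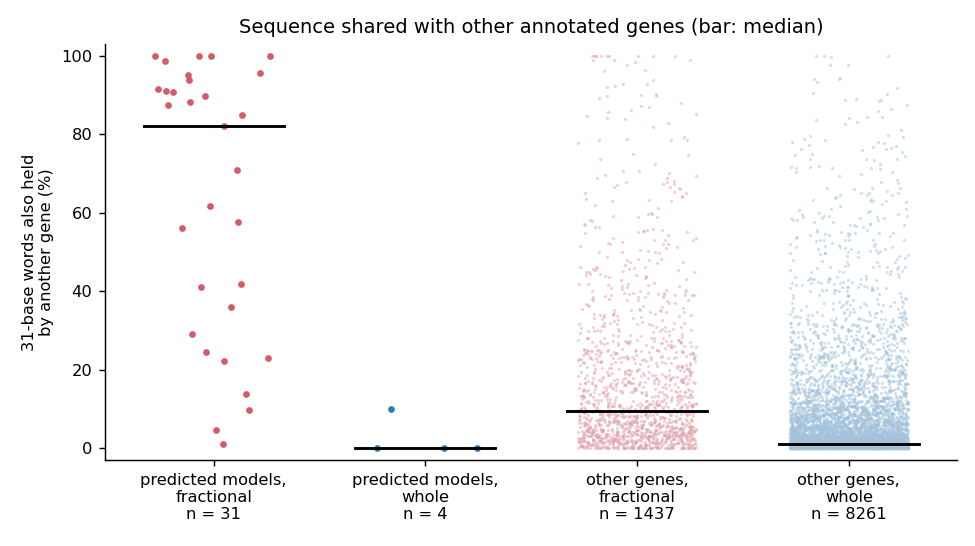
Percentage of the 31-base words of each gene that also occur in another annotated gene, for genes averaging 50 counts or more, split into predicted models and other genes and into rows with fractional and with whole counts; each point is a gene and the bar is the median. The 31 fractional models range up to 100% with a median of 82.2%, the 4 whole-count models lie near 0% apart from Gm20594 with 42 of its 419 words, and the other genes have medians of 9.41% and 1.16%.

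The spread between the 3 libraries was tested for each of 11000 genes averaging 10 counts or more, by a Poisson deviance test on rounded counts with Benjamini-Hochberg adjustment over all of them. At an adjusted p under 0.05, 15 of the 62 members varied beyond counting noise (24.2%), where 3.31% of all genes tested did. The rule used the mean over the libraries and not their spread. All 15 had fractional counts. Among other genes the share was 4.30% of genes with fractional and 2.95% of genes with whole counts, among those with a mean of at least 50. The other 47 members had an adjusted p of at least 0.05, which does not show that they were equal. The test covers counting noise only and not the error of dividing reads between copies.

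Abundance moves with this test, since more reads resolve smaller differences. In members with means of 50 to 100 counts 1 of 21 varied (4.76%, against 1.21% of other genes of that abundance). Between 100 and 1000 counts 7 of 29 did (24.1% against 1.32%), and from 1000 counts 7 of 12 (58.3% against 9.16%). Against a negative binomial model with edgeR's trended dispersion, which sets each gene against the usual spread at its abundance, 9 of the 15 remained and 54 of the 11000 genes passed (0.491%). The 6 that did not remain were Gm39701, Gm39972, Gm40498, Gm21811, Gm40525 and Gm46257.

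Single libraries carried part of this count. The same held over all genes tested: 364 varied, and 129, 244 and 175 did without replicates 1, 2 and 3 in turn. Without replicate 1, 8 of the 15 remained, and Gm14308, Gm21811, Gm38481, Gm39701, Gm40525, Gm46257 and LOC100862468 did not. Without replicate 2, 10 remained, and Gm14434, Gm40498, Gm40525, Gm41885 and Gm46257 did not. Without replicate 3, 13 remained, and Gm14296 and Gm38481 did not. Of the 15, 7 were highest in replicate 1, 6 in replicate 2 and 2 in replicate 3, so no single library was high throughout.

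The size of a spread is given as the log2 range, the log2 of the highest over the lowest scaled count plus 0.5. Its median was 0.29 over the 62 members and 0.13 over all genes averaging 50 counts or more, which were also more abundant. A log2 range of at least 1 was found in 3 members, Gm14296, Gm14308 and Gm4724, and in 5 of the 9717 other genes of that abundance. The narrowest ranges belonged to Gm46620 (0.01), Gm14326 (0.03), LOC105244208 (0.05) and Gm43305 (0.06).

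**Figure D3:**
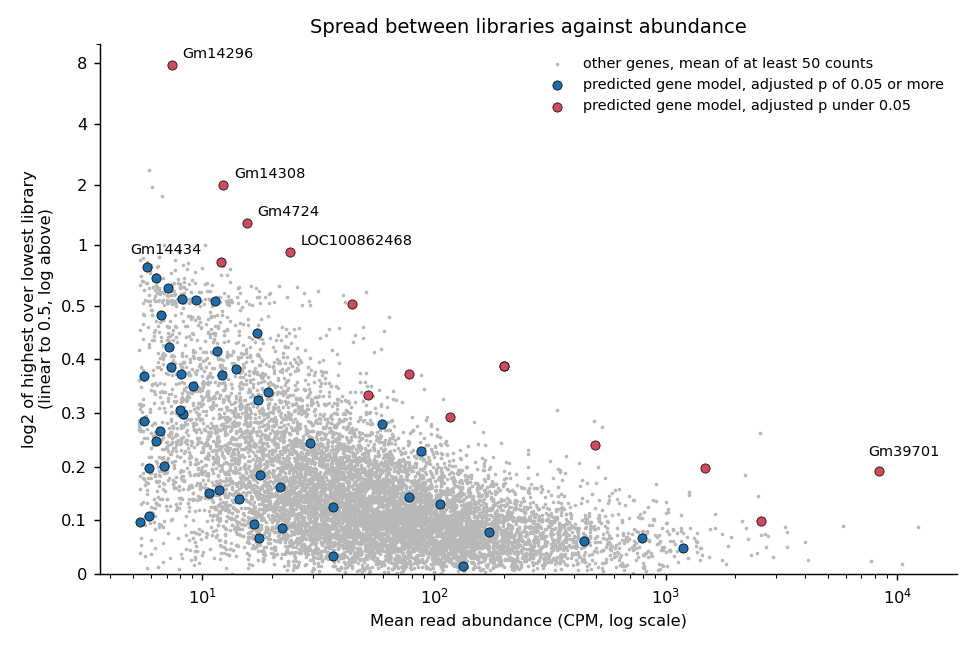
Log2 range over the 3 libraries against mean read abundance (CPM, log scale) for genes averaging 50 counts or more; large points are the 62 predicted models, coloured by whether the adjusted p of the Poisson test of spread was under 0.05, and small points are other genes. Gm14296 (7.88), Gm14308 (1.99) and Gm4724 (1.28) lie highest among the models, and Gm39701 has a range of 0.19.

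The zinc finger cluster on chromosome 2 held the members with the 3 widest spreads. Its 11 members, grouped after their values and annotation had been seen, were Gm14295, Gm14296, Gm14308, Gm14322, Gm14325, Gm14326, Gm14391, Gm14434, Gm14440, Gm4724 and Gm6710. All 11 had fractional counts. The coding sequences of 9 of them hold C2H2 fingers, found by their cysteine and histidine spacing, from 8 in Gm14322 to 25 in Gm14295. Those of Gm14296 and Gm14440 hold 0. Gm14295, the most abundant, had 692.66, 771.65 and 737.92 counts, and Gm14326 had 346.88, 341.68 and 344.72.

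The 3 genes of identical coding sequence, each with 13 fingers, differed between libraries in 3 different ways. Gm14308 had 208.64, 52.56 and 84.88 counts in replicates 1, 2 and 3, so replicate 1 was far above the others. Gm14434 had 91.14, 158.98 and 89.19 counts, with replicate 2 the highest. Gm4724 had 86.72, 139.42 and 213.38 counts, with replicate 3 the highest.

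Their log2 ranges were 1.99, 0.83 and 1.28, with adjusted p of 2.09e-22, 0.000198 and 6.13e-10 in the Poisson test. Summed, the 3 rows held 386.5, 350.96 and 387.45 counts, a log2 range of 0.15, narrower than that of any of the 3 alone. The split between the rows thus changed more from library to library than their total. Gm2026, a gene that is no member, holds 2520 of the 2559 words of Gm14434 and was not part of this total. Over all 11 cluster members the sum was 2453.69, 2449.34 and 2339.55 counts, a log2 range of 0.08, where the single members ran from 0.03 to 7.88 with a median of 0.38 and 4 varied by the test. Depth alone narrows such a sum: other genes had a median range of 0.08 from 1000 counts and 0.14 between 100 and 1000. The sum over the cluster therefore cannot tell whether reads moved between its members. Gm14391 and Gm6710, whose coding sequences of 1662 bases also differed at 0 bases, had ranges of 0.45 and 0.38 singly and 0.33 together, a smaller narrowing than in the 3 genes above.

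Gm14296 gave the widest range of any member. It had 116.42, 91.25 and 0 counts in replicates 1, 2 and 3, with an adjusted p of 1.54e-34, and was listed at 0 in replicate 3 only. Its log2 range of 7.88 depends on the 0.5 added and was 5.90 with 2 added. Its transcripts share 3904 words with 2210418O10Rik, which are all the words of that gene. 2210418O10Rik had 223.2, 282.45 and 319.1 counts and was highest where Gm14296 was at 0. The 2 rows together held 339.62, 373.7 and 319.1 counts, a log2 range of 0.23.

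Some fractional rows add up to a whole number with 1 other row in every library, to the 2 decimals of the table. This held for 5 of the 45 members with a fraction in all 3 libraries, and for 648 of 1294 such rows in the whole table. The 5 were LOC105244208 with Rps6, Gm38495 with Aak1, Gm38481 with Idi1, LOC100862468 with Snu13 and Gm3650 with Spg11. These pairs were singled out after the values had been seen.

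LOC105244208 had 11332.24, 11048.37 and 11235.89 counts and Rps6 had 467.76, 575.63 and 630.11. Their sums were 11800, 11624 and 11866. All 720 words of the copy also occur in Rps6, and the copy held 95.3 ± 0.697% (SD, n = 3) of the pair, 20.4 ± 3.37 times the count of the ribosomal gene itself. Per length Rps6 alone stood at 37.4 RPKM, beside 566 RPKM for Rpl24, a gene for a protein of the large ribosomal subunit. The row named Rps6 varied between libraries (adjusted p = 0.000698 in the Poisson test, log2 range 0.42), while the sum had a range of 0.03.

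The other copies took the smaller part. Gm21596 had 357.25, 343.72 and 330.10 counts, 13.8 ± 0.530% of the pair with Hmgb1, and 1122 of its 1286 words occur in Hmgb1. Gm12657 had 204.84, 192.37 and 215.14 counts, 3.09 ± 0.217% of the pair with H3f3a, with which it shares 272 of its 381 words (both ± SD, n = 3). Neither model varied by the test. Gm3650 had 61.36, 62.97 and 52.88 counts, 4.24 ± 0.438% of the pair with Spg11, the spatacsin gene, whose transcripts hold 686 of its 717 words. Eif3j1, a translation initiation factor gene, holds 574 of them. The RefSeq span of Gm3650 overlaps Eif3j2, which had 16.08, 16.15 and 40.04 counts and varied (adjusted p = 0.0240, Poisson test). Which of these genes Gm3650 copies was not tested.

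Gm38481 had 495.29, 400.11 and 350.77 counts, highest in replicate 1, and varied with an adjusted p of 0.000168 in the Poisson test (log2 range 0.51). Idi1, the isomerase gene of isoprenoid and cholesterol synthesis, had 1085.71, 1284.89 and 1275.23 counts and was lowest in replicate 1. The sums were 1581, 1685 and 1626, a log2 range of 0.08. Gm38481 thus held 31.3%, 23.7% and 21.6% of the pair.

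LOC100862468 had 139.34, 266.12 and 266.65 counts, lowest in replicate 1, with a log2 range of 0.92 and an adjusted p of 2.63e-09 in the Poisson test. Snu13, which encodes an RNA-binding protein of the spliceosome and of box C/D ribonucleoproteins, had 1523.66, 1462.88 and 1589.35 counts. The sums were 1663, 1729 and 1856, a log2 range of 0.15, wider than the 0.12 of Snu13 alone. In replicate 1 the model held 8.38% of the pair, and in replicates 2 and 3 it held 15.4% and 14.4%.

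**Figure D4:**
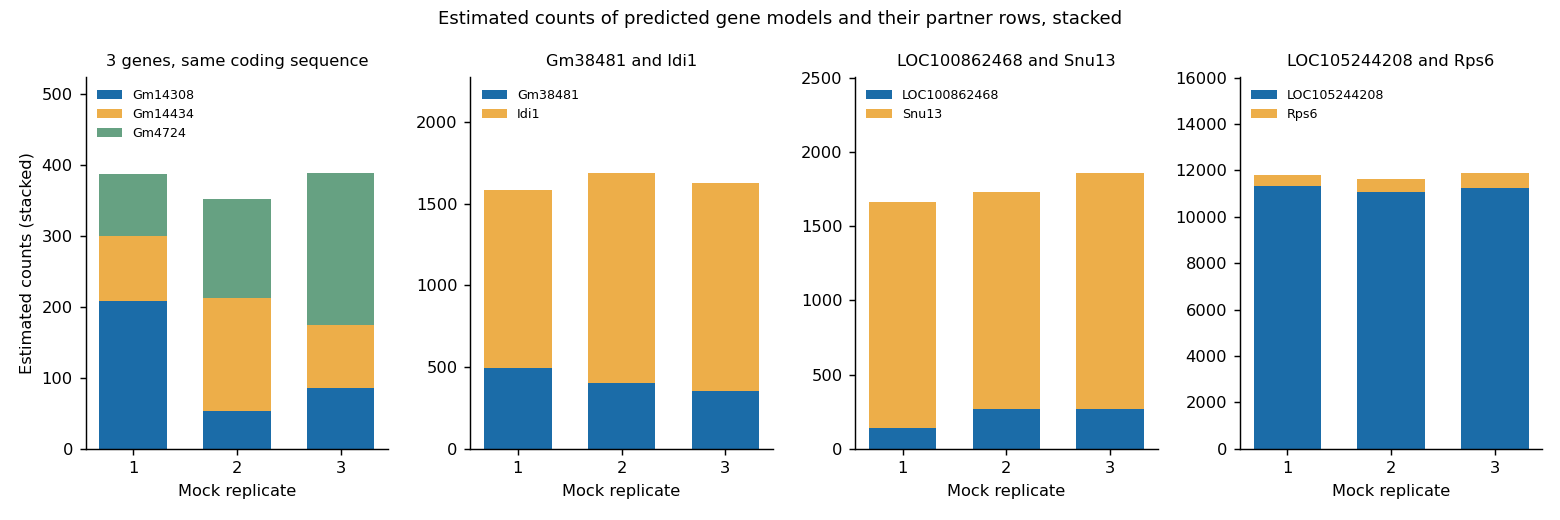
Estimated counts in Mock replicates 1, 2 and 3, stacked for the 3 zinc finger genes of identical coding sequence and for Gm38481 with Idi1, LOC100862468 with Snu13 and LOC105244208 with Rps6. The bar heights, the sums, have log2 ranges of 0.15, 0.08, 0.15 and 0.03, while the parts of Gm14308, Gm4724, Gm38481 and LOC100862468 differ between bars. Snu13 alone has a range of 0.12, narrower than its sum with LOC100862468.

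A further 2 models carry a symbol that RefSeq lists as a synonym of a named gene. Gm38495 is such a synonym of Aak1, a kinase gene of clathrin-mediated endocytosis, and the table has a row for each. Gm38495 had 1041.35, 958.15 and 990.51 counts and Aak1 had 132.65, 137.85 and 145.49, with sums of 1174, 1096 and 1136. The row with the provisional symbol thus held 87.8 ± 0.813% (SD, n = 3) of the pair. Gm38422 is listed as a synonym of the zinc finger gene Zfp64 and had 52, 49 and 51 counts beside 407, 418 and 423 for Zfp64, whole numbers in both rows.

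Read-through models overlap the genes they join. Gm45927 spans Clk2, a kinase gene for splicing factors, and Scamp3, a gene of secretory carrier membranes, overlaps Gm16069 as well, and had 127.95, 115.47 and 99.52 counts. With Clk2 and Scamp3 added, the 3 rows summed to 1315.01, 1286 and 1363 counts. Of these rows Clk2 varied by the test (adjusted p = 0.0244, Poisson test), with 210.59, 150.11 and 215.4 counts. Gm20604 spans Moap1, Gon7 and Tmem251, had 174.24, 175.42 and 140.10 counts and shares 1136 of its 2765 words with Moap1. Moap1 itself, a gene of apoptosis signalling, had 123.91, 134.37 and 166.02 counts. Per length Gm20604 stood at 6.21 and Moap1 at 11.3 RPKM, and neither row varied by the test.

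A set of 7 members could be joined by shared words or by protein patterns of retroviruses, and was put together after their sequences had been seen: Gm39701, Gm42226, Gm41844, Gm46223, Gm37416, Gm43305 and Gm46911. The patterns were sought in start windows, mostly upstream of the model, and were found in Gm39701, Gm42226 and Gm46911 only. The others were joined by shared words alone, and whether they are retroviral was not tested. The windows of 300 bases around the annotated starts of Gm39701 and Gm42226 share 96 of their 270 words. Read in the 6 frames of both strands, both windows hold a frame without a stop that contains the LPQG motif of reverse transcriptases. Such a frame was found in 39 of 32851 windows (0.119%), and the motif with or without a stop in 454 (1.38%). A start codon and the strand of the model were not required. The window of Gm46911 holds the CCHC zinc knuckle pattern of retroviral nucleocapsid proteins, found in 33 windows (0.1005%), and shares 169 words with the transcripts of Gm43305. Gm42427, an annotated gene that is no member, shares 581 of the 645 words of Gm46223, 225 of the 288 of Gm37416 and 239 of the 270 in the window of Gm41844. A pattern match describes these letters and shows no protein.

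Together the 7 stood at 9817, 8662 and 8651 CPM, of which Gm39701 was the main part. Without it the sum was 719, 683 and 692 CPM, a log2 range of 0.07. Gm39701 was the only member of the 7 that varied by the Poisson test, at an adjusted p of 2.92e-201 with a log2 range of 0.19. Its adjusted p against the trended dispersion was 0.0769. Gm46911, at 66.2, 54.5 and 57.7 CPM, was also highest in replicate 1 but had an adjusted p of 0.0789 in the Poisson test. Gm42226 and Gm43305 were highest in replicate 1 too, as were 29 of all 62 members.

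The remaining models that varied had log2 ranges from 0.10 to 0.39. Gm39972, highest in replicate 1, and Gm41885, highest in replicate 2, had log2 ranges of 0.20 and 0.24. Gm40498, also highest in replicate 2, had 0.10. LOC100044627 and LOC100862455 had the same range of 0.39, and with the 2 identical rows counted once 14 members varied. Gm46257, with 835.52, 650.05 and 719.18 counts, had a range of 0.37. Gm40525 followed with 440.31, 559.82 and 466.95 counts and a range of 0.33. The pseudogene Gm21811 (0.29) shares 753 of its 900 words with Gm21092.

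Other members were less abundant and did not vary by the test. Gm37416, a noncoding model joined to the set of Gm39701 by shared words alone, had 71.81, 92.10 and 92.41 counts. The pseudogene Gm43828 had 89.73, 120.88 and 116.54. LOC102639700 had 51.34, 71.04 and 41.13 counts. Its log2 range of 0.78 was the widest among members with an adjusted p of at least 0.05 (0.188, Poisson test), at a depth where counting noise alone is large.

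The minimum of 50 counts divides a continuous series. Just inside it stood Gm38422 with a mean of 50.7 counts, Gm46223 with 52.8 and Gm42368 with 52.9. Just outside stood Gm3776 with 47.35, Gm10130 with 47 and Gm34220 with 44. Of these 6 rows Gm46223, Gm42368 and Gm3776 had fractional counts.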

How the data were processed

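The authors' deposited table gives estimated counts per gene symbol, 1 column per library, not normalized. Per the submitters' processing notes, the build was GRCm38.p6. Aligner, counter, gene annotation, filters and strand setting: not given in the sources used here. Overlapping and antisense genes cannot be told apart for that reason.

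Members are rows whose symbol is Gm or LOC followed by digits, with a mean of at least 50 counts. The members, the lists and the rules were chosen with earlier results of these data known. Symbols were matched to RefSeq and GENCODE M21 tables of GRCm38, where the name of Gm43828 stood at another place in GENCODE and was not used there. CPM used totals scaled by TMM factors (1.0034, 0.9977 and 0.9989, edgeR 4.0.16 in R 4.3.3). The spread was tested on counts rounded to whole numbers, with 2 degrees of freedom, since 1 group allows no comparison. Self-tests on simulated data checked this test and the count of shared words. DESeq2 1.42.0 gave alternative size factors. Sequence steps used Python 3.11.15, and plots used matplotlib 3.10.9.

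Named members are the 12 most abundant, the 6 widest and 4 narrowest log2 ranges, the 5 most abundant with whole counts, the 3 on each side of the minimum and the 3 most abundant of each RefSeq class. The gene sharing most sequence with each may be named too. Partner genes and the remaining members were named with their values in view. SDs cover the whole scatter between these 3 libraries, and the Poisson test allows for counting noise only. The trended dispersion was estimated from the same 3 libraries. No molecular identifiers are described in the labels. Leaving out each library, other scalings, filters, rounding and error models were tried as alternatives, and counting 2 identical rows once was added after seeing the data.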

Additional observations from a re-analysis of the deposited data

How the results depend on the processing

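No paired analysis was possible because the 3 libraries form 1 group. The number of members moved with the rule itself, from 62 to 102 at a minimum of 20 counts, to 41 at 100 and to 8 with whole counts only. The members' share of all counts was 1.68 to 1.75% with a library left out, 0.886% without the most abundant member and 0.0167% for members with whole counts only. Genes with fractional counts numbered 990 of the 1497 when all 3 libraries had to show it. The count of members that varied was 15 with library totals, with DESeq2 size factors, with other filters and with truncated counts. It was 9 against the trended dispersion, where all genes gave 54 in place of 364, and 8 to 13 with a library left out, where the count over all genes was 129 to 244. Of 99 alternative values of log2 ranges over 33 named features, 99 moved by less than the spread between libraries. The cause of these shifts was not tested, apart from the smaller number of libraries, genes or counts that an alternative uses. Depth limits the test in members under 100 counts, of which 1 of 21 varied.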
